A study of Mus musculus with 4 samples.

Results

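Interferon-stimulated genes are the genes that cells switch on after interferon binds its receptor. Here 48 of them, listed by gene symbol, were followed through 4 RNA-seq libraries of mouse T helper 17 (Th17) cultures. The list was chosen with earlier results of these data known. Of the 48, 45 were measured in all 4 libraries, out of 19555 rows in the table, and 30 of these reached a mean of at least 1 RPKM, the level used as a filter for testing, which 13715 rows passed. RPKM divides reads by exon length in kilobases and by library size, so levels can be set side by side between genes. The members Rsad2, Rtp4 and Ifi44 were not analysed here.

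Type I interferons bind the receptor formed by IFNAR1 and IFNAR2, and its kinases JAK1 and TYK2 activate a complex with STAT2 and IRF9 that binds interferon-stimulated response elements (ISRE) in promoters. Interferon gamma acts through a separate receptor, and many of its targets carry gamma-activated sites (GAS). The products sense foreign RNA, degrade it, block viral entry or assembly and tag proteins, and T cells carry a basal level of many of them without infection.

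Naive CD4+ T cells of C57BL/6 mice, taken from spleen and lymph nodes, were activated and cultured for 3 days with IL-6 and TGF-β1, the cytokine pair that drives Th17 differentiation. The groups were labelled Smad4 knockout (KO) at 39.5 °C, Smad4 KO at 37 °C, wild type (WT) at 39.5 °C and WT at 37 °C, with 1 library each. SMAD4 is the partner that the receptor-activated SMAD proteins share in TGF-β signalling, and 39.5 °C is a fever-range temperature. The sources used here do not give the allele, any Cre driver, the number of mice pooled or whether separate mice or cultures lay behind the libraries. The p-values therefore measure no spread between animals. Their error is how far the label difference changes with temperature (the interaction), moderated over all genes. Differences between these libraries may be technical.

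The library sizes that the RPKM values imply were 18410930, 17639131, 19308699 and 18216613 in the KO-labelled libraries at 39.5 and 37 °C and in WT at 39.5 and 37 °C. The targeted gene went against its label: Smad4 had 21.3 and 20.7 RPKM in the KO-labelled libraries at 39.5 and 37 °C, against 14.2 and 14.1 RPKM in WT. It rose with the label in a limma fit of the whole table (log2 0.54 ± 0.12 SE, adjusted p = 0.0454). RPKM is a value over all exons and single exons were not read, so why Smad4 RNA stood higher was not tested. Genotype directions below are therefore those of the label, and the libraries labelled Smad4 KO are called KO-labelled. All 15 T cell and Th17 markers listed were measured, summing to 2930 and 2660 RPKM in the KO-labelled libraries at 39.5 and 37 °C and 4660 and 3100 RPKM in WT. Of these 15, 4 fell with the KO label, all Th17 genes, and 1 rose (Cd3g, log2 0.65 ± 0.15, adjusted p = 0.0479). The cytokine gene Il17a had 79.7 and 32.6 RPKM in the KO-labelled libraries at 39.5 and 37 °C and 686 and 134 RPKM in WT (log2 −2.55 ± 0.26, adjusted p = 0.0137), and Il17f fell by 1.76 ± 0.21 on the log2 scale (adjusted p = 0.0151). The chemokine receptor gene Ccr6 had 6.62 and 4.98 RPKM in the KO-labelled libraries at 39.5 and 37 °C and 33.5 and 28.3 RPKM in WT (log2 −2.24 ± 0.12, adjusted p = 0.00616), and Rora fell by 1.30 ± 0.16 on the log2 scale (adjusted p = 0.0157). Whether the makeup or state of the cultures had a part in the members' values was not tested. Markers of other cells were low: the 3 of 8 CD8 and NK cell markers measured summed to 4.17 to 5.69 RPKM, and 2 of 8 B cell markers to 3.85 to 14.4 RPKM. Of 7 erythroid and platelet markers 1 was measured (Hba-a1), at 0.401 RPKM or below. Of 11 myeloid and dendritic cell markers 6 were measured, summing to 8.57 and 4.43 RPKM in the KO-labelled libraries at 39.5 and 37 °C and to 6.38 and 2.96 RPKM in WT. Most of that sum was Cd68, with 8.17 and 3.61 RPKM in the KO-labelled libraries at 39.5 and 37 °C and 4.57 and 1.70 RPKM in WT, which rose with the KO label (log2 0.74 ± 0.13, adjusted p = 0.0275). By contrast the macrophage marker Lyz2 had 0.0413 and 0.345 RPKM in the KO-labelled libraries at 39.5 and 37 °C and 1.22 and 1.001 RPKM in WT. The monocyte and dendritic cell markers Cd14 and Itgax were near the floor in all libraries, at 0.216 and 0.0863 RPKM or below, and at 0 in WT at 37 °C. Whether other cells had a part was not tested either, and in bulk RNA fewer cells of a type and less RNA per cell cannot be told apart.

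The members stood higher with the Smad4 KO label. Of the 30 past the filter, 20 rose with the label in the limma fit of genotype and temperature over all 4 libraries, 0 fell and 10 did not pass the test (adjusted p under 0.05 over 13715 rows). Over all rows 8.57% rose and 4.7% fell. The members were chosen with earlier results of these data known, so the shares of all rows here are not a blind comparison. At an unadjusted p under 0.05, 23 of the 30 were higher and 0 lower, beside 19.0% and 15.6% of rows. The calls depended on the model: limma-voom on recovered reads called 23 higher and 0 lower (beside 11.8% and 9.25% of rows), genotype alone called 1 (0.0802% of rows rose), and with no filter on low values 0 of 45 members and 0 rows were called. The median log2 change of the 30 was 0.88, beside −0.01 for all rows tested. Both libraries labelled Smad4 KO lay above both WT libraries in 35 of the 45 measured members and in 26 of the 30 past the filter, a pattern held by 29.4% of rows past it. They lay below both in 1 of the 45 (Oasl2) and 0 of the 30, a pattern held by 30.1% of rows past the filter. The filter itself bears on these counts: 6 of the 30 passed it with a WT mean under 1 RPKM (Oas3, Ifitm1, Irf7, Ddx58, Dhx58 and Isg20) and 1 with a mean under 1 RPKM in the KO-labelled libraries (Ifit2). Among the 24 members with a WT mean of at least 1 RPKM, 16 rose, where 7.99% of rows rose under that filter.

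**Figure D1:**
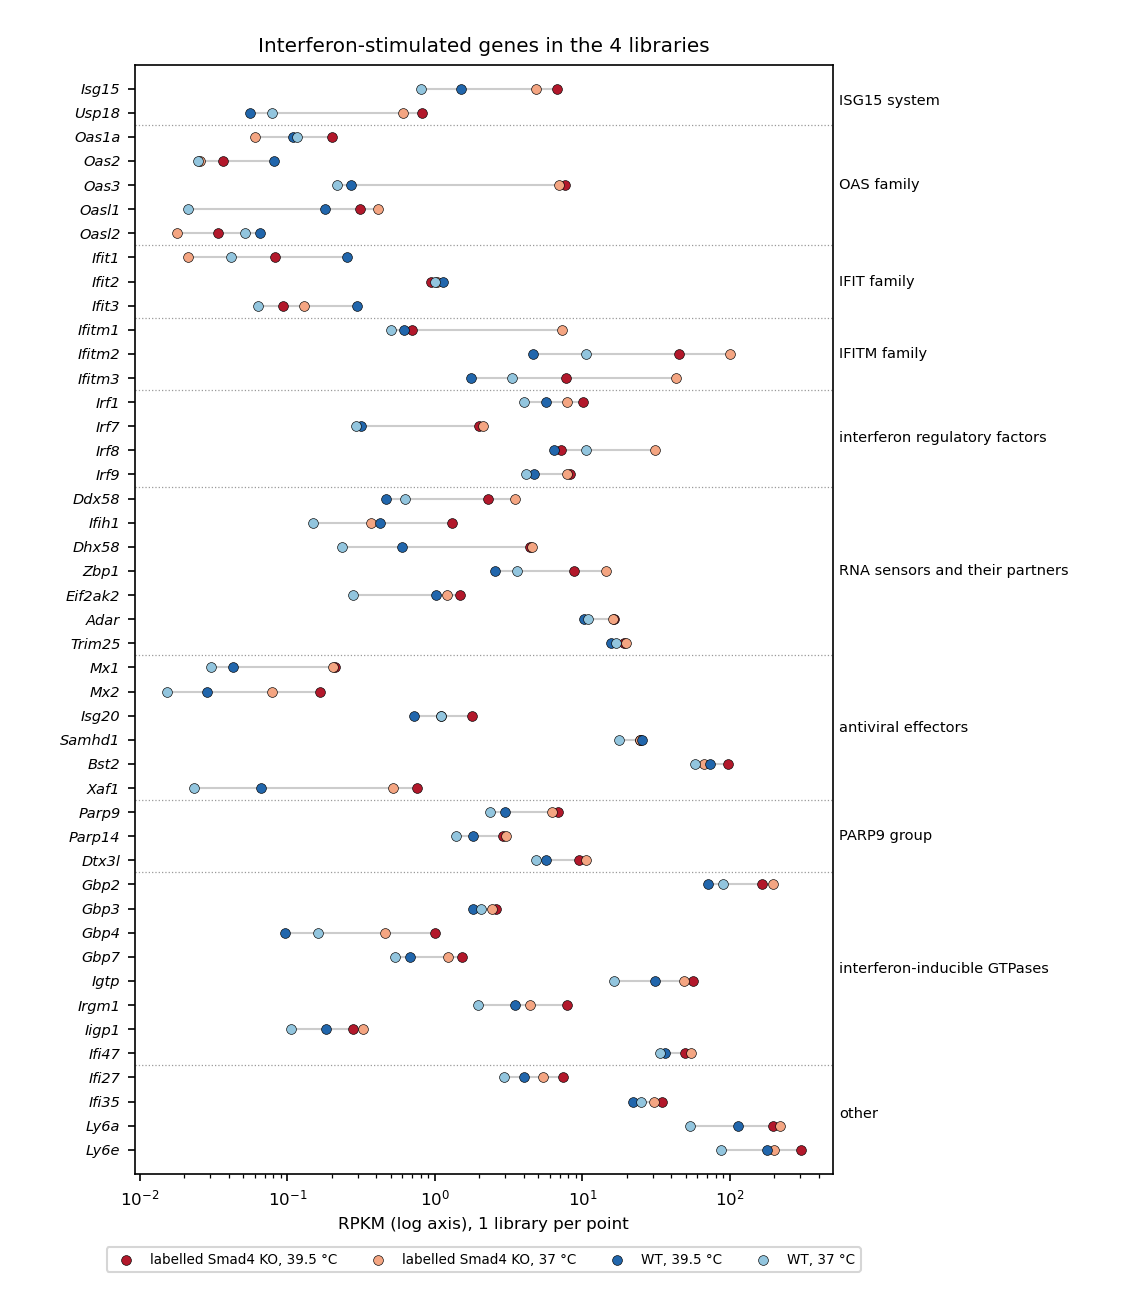
Level of each of the 45 measured members in RPKM (log axis), 1 point per library, grouped by role; red and orange points are the KO-labelled libraries at 39.5 and 37 °C, dark and light blue points WT at 39.5 and 37 °C. Red and orange lie right of both blue points in 35 members, levels span 0.0152 to 302 RPKM, and Ifitm1 and Irf8 show a lone orange point to the right of the other libraries.

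The ISG15 system showed this pattern at low levels. Isg15, a ubiquitin-like modifier that is conjugated to other proteins (chromosome 4, 156199424 to 156200818, minus strand, GENCODE vM21 on GRCm38), had 6.68 and 4.87 RPKM in the KO-labelled libraries at 39.5 and 37 °C, against 1.51 and 0.799 RPKM in WT. It rose by log2 1.66 ± 0.14 (adjusted p = 0.00977), a ratio of 4.43 at 39.5 °C (95% interval 2.76 to 7.41) and 6.10 at 37 °C (3.20 to 12.8). These intervals, here and below, are exact and cover counting error only, since 1 library stands on each side and PCR reads are not independent molecules. Its protease gene Usp18, which also damps type I interferon receptor signalling, stayed under the filter, with 42 and 30 reads in the KO-labelled libraries at 39.5 and 37 °C and 3 and 4 reads in WT.

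Of the OAS family, enzymes that make oligoadenylates when they bind double-stranded RNA, 1 member of 5 was expressed past the filter. Oas3 (chromosome 5, 120753098 to 120777661, minus strand) had 7.63 and 6.91 RPKM (993 and 862 reads) in the KO-labelled libraries at 39.5 and 37 °C, against 0.271 and 0.217 RPKM (37 and 28 reads) in WT. The groups were far apart, with ratios of 28.1 (20.3 to 40.2) at 39.5 °C and 31.8 (21.8 to 48.1) at 37 °C, the highest of the 30 at both temperatures, and log2 2.73 ± 0.14 (adjusted p = 0.00611). Its family neighbours on chromosome 5 were far lower. Oas2 had 3 and 2 reads in the KO-labelled libraries at 39.5 and 37 °C and 7 and 2 reads in WT, and Oas1a had 7 and 2 reads with the KO label (39.5 and 37 °C) against 4 and 4 reads in WT. Near-identical copies of the Oas1 genes can split or lose reads in counting, so the levels of these genes are uncertain. Outside the 48, Oas1c had 43 and 28 reads in the KO-labelled libraries at 39.5 and 37 °C and 15 and 8 reads in WT, with ratios of 3.01 (1.64 to 5.83) and 3.62 (1.61 to 9.18) at 39.5 and 37 °C. Oas1b had 27 and 35 reads in the KO-labelled libraries at 39.5 and 37 °C and 12 and 2 reads in WT. Both stood higher with the label at both temperatures, under the filter.

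The IFITM family, membrane proteins that block entry of viruses, held the largest genotype change of the members on log2(RPKM + 1), that of Ifitm2; Oas3 exceeded it by ratio, with a pseudocount of 0.1 RPKM (log2 4.42 for Oas3 and 3.24 for Ifitm2) and with limma-voom (4.88 and 3.25). Ifitm2 (chromosome 7, 140954837 to 140955987, minus strand) had 44.9 and 99.3 RPKM in the KO-labelled libraries at 39.5 and 37 °C, against 4.59 and 10.6 RPKM in WT. It rose by log2 3.08 ± 0.12 (adjusted p = 0.00539), with ratios of 9.78 (7.45 to 13.1) and 9.40 (7.82 to 11.4) at 39.5 and 37 °C. Under both labels it stood lower at 39.5 °C than at 37 °C. Of its 655 exon bases, 268 (40.9%) are shared with the annotated gene Gm45717 on the same strand. Ifitm3 had 7.77 and 42.7 RPKM in the KO-labelled libraries at 39.5 and 37 °C, against 1.76 and 3.32 RPKM in WT, and rose by log2 2.50 ± 0.38 (adjusted p = 0.0208). Its ratio was 4.42 (2.79 to 7.30) at 39.5 °C and 12.9 (9.36 to 18.1) at 37 °C. Ifitm1 was high in 1 library alone: it had 0.695 and 7.25 RPKM in the KO-labelled libraries at 39.5 and 37 °C and 0.615 and 0.502 RPKM in WT, and missed the threshold (log2 1.26 ± 0.53, adjusted p = 0.16). The 3 genes are close relatives in sequence and lie together on chromosome 7, so reads may be split between them.

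The IFIT family, cytoplasmic proteins that bind viral RNA, showed no detectable difference by genotype label. Ifit2 was level across the libraries, with 0.940 and 1.03 RPKM in the KO-labelled libraries at 39.5 and 37 °C and 1.13 and 1.006 RPKM in WT (log2 −0.06 ± 0.16, adjusted p = 0.81). The ratio interval was 0.594 to 1.15 at 39.5 °C and 0.723 to 1.43 at 37 °C. Ifit1 had 4 and 1 reads in the KO-labelled libraries at 39.5 and 37 °C and 13 and 2 reads in WT, and Ifit3 had 3 and 4 reads with the KO label (39.5 and 37 °C) against 10 and 2 reads in WT. By temperature, the WT ratio was 6.13 (1.39 to 56.0) for Ifit1 and 4.72 (1.005 to 44.3) for Ifit3, both on few reads.

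Promoter sequences of 5 members are printed here as examples of windows with the ISRE core, chosen after the values were seen: 4 genes that rose (Oas3, Isg15, Ifitm2 and Gbp2) and 1 that stayed near 0 (Ifit1). Each stretch is the 150 bases before the RefSeq transcript start (GRCm38.p6), 5′ to 3′ on the strand of the gene, and capitals mark ISRE core matches (GAAANNGAAA, searched on both strands, so that a match on the other strand reads TTTCNNTTTC). Oas3 is at chr5:120777660-120777809 (minus strand), Isg15 at chr4:156200819-156200968 (minus), Ifitm2 at chr7:140955962-140956111 (minus), Gbp2 at chr3:142620513-142620662 (plus) and Ifit1 at chr19:34640739-34640888 (plus). GENCODE places the start of some of these genes inside the stretch.
Oas3: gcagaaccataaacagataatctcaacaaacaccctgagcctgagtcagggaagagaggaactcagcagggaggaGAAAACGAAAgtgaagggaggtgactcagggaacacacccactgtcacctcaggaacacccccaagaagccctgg
Isg15: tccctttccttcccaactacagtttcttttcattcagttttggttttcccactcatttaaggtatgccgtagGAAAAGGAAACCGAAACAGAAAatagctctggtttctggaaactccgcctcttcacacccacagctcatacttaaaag
Ifitm2: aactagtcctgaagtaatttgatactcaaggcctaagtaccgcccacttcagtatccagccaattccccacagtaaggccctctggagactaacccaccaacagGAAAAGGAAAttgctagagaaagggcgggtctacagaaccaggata
Gbp2: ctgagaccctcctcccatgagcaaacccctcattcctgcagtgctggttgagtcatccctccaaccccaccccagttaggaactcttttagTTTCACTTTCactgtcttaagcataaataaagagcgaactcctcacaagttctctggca
Ifit1: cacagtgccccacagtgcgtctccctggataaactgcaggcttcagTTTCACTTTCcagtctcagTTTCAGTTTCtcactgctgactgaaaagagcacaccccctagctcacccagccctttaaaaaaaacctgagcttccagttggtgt

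Isg15 carries 3 overlapping matches, whose first bases lie 78, 72 and 66 bases before the start, and Ifit1 carries 2, at 104 and 85 bases before it. Oas3, Gbp2 and Ifitm2 carry 1 each, at 75, 59 and 46 bases. A window of 300 bases (250 before to 50 after the start) was found for 34 of the 48 members, and 17 of them (50%) held the ISRE core, as did 3.99% of 27025 genes with a window. Of the members that rose with the KO label, 14 had a window and 8 held the core, beside 2 of 9 past the filter that did not pass the test and 6 of 9 not past it. The GAS core TTCNNNGAA was in 13 of the 34 (38.2%), beside 9.55% of genes, and in 4 of the 14 that rose, 6 of 9 past the filter that did not pass the test and 3 of 9 not past it. GAS and ISRE matches overlap in some windows, as in Ifitm3. A match is a description of letters and not of binding, and the low Ifit1 and Ifit3 each carry 2 ISRE cores.

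**Figure D2:**
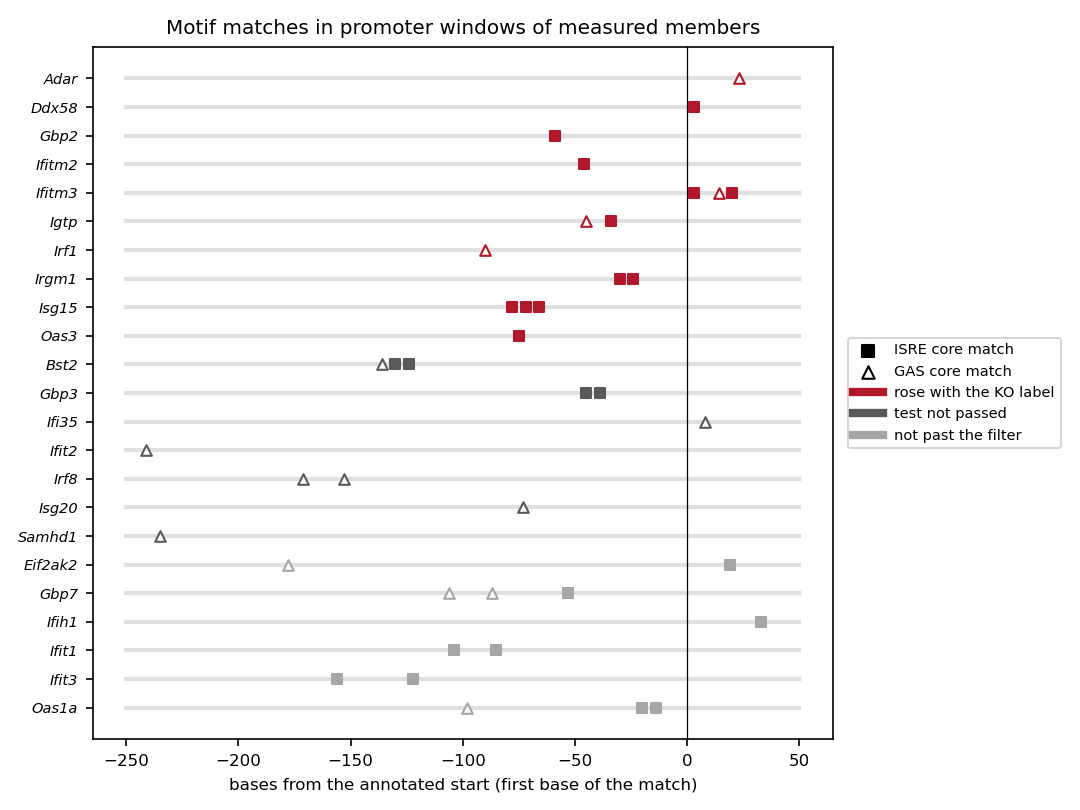
First base of each ISRE core match (filled squares) and GAS core match (open triangles) in bases from the annotated transcript start, 1 line per measured member with a match, coloured by whether the gene rose with the Smad4 KO label. Matches sit in windows of genes that rose (such as Isg15, with 3) and in those of genes near 0 (such as Ifit1, with 2).

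Of the 4 interferon regulatory factors, 3 rose, where 8.57% of all rows did. Of these 3, Irf7 passed the filter with a WT mean under 1 RPKM (0.303 RPKM). Irf7, the factor that amplifies type I interferon production, had 1.999 and 2.13 RPKM in the KO-labelled libraries at 39.5 and 37 °C, against 0.316 and 0.291 RPKM in WT. It rose by log2 1.23 ± 0.16 (adjusted p = 0.0157), with ratios of 6.34 (4.06 to 10.3) and 7.33 (4.57 to 12.4) at 39.5 and 37 °C. Irf9, the DNA-binding partner of STAT2, had 8.17 and 7.83 RPKM in the KO-labelled libraries at 39.5 and 37 °C and 4.66 and 4.12 RPKM in WT (log2 0.74 ± 0.13, adjusted p = 0.0263). Irf1, an early target of interferon gamma, had 10.05 and 7.84 RPKM with the KO label (39.5 and 37 °C) against 5.65 and 3.99 RPKM in WT (log2 0.78 ± 0.13, adjusted p = 0.0236). For these 3 genes both KO-labelled libraries were above both WT libraries, as in 29.4% of rows past the filter. Irf8, a factor best known from myeloid and B cells, was high in the KO-labelled library at 37 °C: it had 7.14 and 31.2 RPKM in the KO-labelled libraries at 39.5 and 37 °C, and 6.37 and 10.6 RPKM in WT (log2 0.81 ± 0.31, adjusted p = 0.134).

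Among the RNA sensors and their partners, 4 of the 5 past the filter rose, where 8.57% of all rows did. Of these 4, Ddx58 and Dhx58 passed the filter with a WT mean under 1 RPKM (0.547 and 0.418 RPKM). Ddx58, which encodes the 5′-triphosphate RNA sensor RIG-I, had 2.30 and 3.48 RPKM in the KO-labelled libraries at 39.5 and 37 °C, against 0.463 and 0.631 RPKM in WT (log2 1.32 ± 0.16, adjusted p = 0.0154). Dhx58, its regulatory relative LGP2, had 4.43 and 4.57 RPKM with the KO label (39.5 and 37 °C) against 0.602 and 0.235 RPKM in WT (log2 1.97 ± 0.17, adjusted p = 0.0104), with ratios of 7.37 (5.23 to 10.6) and 19.5 (11.4 to 36.1) at 39.5 and 37 °C. Zbp1, a sensor of Z-form nucleic acid that can trigger necroptosis, had 8.73 and 14.6 RPKM with the KO label (39.5 and 37 °C) against 2.55 and 3.58 RPKM in WT (log2 1.61 ± 0.14, adjusted p = 0.0106). All 3 were at least 2-fold higher at both temperatures. The RNA-editing enzyme gene Adar rose too, with 16.3 and 16.2 RPKM with the KO label (39.5 and 37 °C) against 10.2 and 10.9 RPKM in WT (log2 0.57 ± 0.12, adjusted p = 0.042), and shares 1365 exon bases (16.8%) with Chrnb2 on the opposite strand. Trim25, the ubiquitin ligase that acts with RIG-I, did not pass the test, with 19.3 and 19.7 RPKM with the KO label (39.5 and 37 °C) against 15.7 and 16.8 RPKM in WT (log2 0.25 ± 0.12, adjusted p = 0.209). Ifih1 (the long double-stranded RNA sensor MDA5) and Eif2ak2 (the kinase PKR) stayed under the filter.

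The antiviral effectors past the filter did not pass the test. Bst2, or tetherin, which holds budding virus at the membrane, was the most abundant, with 96.2 and 66.9 RPKM in the KO-labelled libraries at 39.5 and 37 °C and 72.7 and 58.0 RPKM in WT (log2 0.30 ± 0.12, adjusted p = 0.15). The dNTP hydrolase gene Samhd1 had 24.4 and 24.7 RPKM with the KO label (39.5 and 37 °C) against 25.1 and 17.6 RPKM in WT, and the exonuclease gene Isg20 had 1.78 and 1.10 RPKM with the KO label (39.5 and 37 °C) against 0.724 and 1.09 RPKM in WT. The groups overlapped in Bst2 and Samhd1, and in Isg20 the libraries at 37 °C were nearly equal. The dynamin-like GTPase genes Mx1 and Mx2 stayed at 0.209 RPKM or below in all libraries, and Xaf1, a proapoptotic binder of XIAP, at 0.753 RPKM or below.

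The PARP9 group lies together on chromosome 16. Parp9 and its partner ubiquitin ligase gene Dtx3l, which are transcribed in opposite directions, both rose. Parp9 had 6.81 and 6.24 RPKM in the KO-labelled libraries at 39.5 and 37 °C, against 3.00 and 2.35 RPKM in WT (log2 1.04 ± 0.13, adjusted p = 0.0157). Dtx3l had 9.46 and 10.6 RPKM with the KO label (39.5 and 37 °C) against 5.67 and 4.81 RPKM in WT (log2 0.82 ± 0.14, adjusted p = 0.0277). They share 458 exon bases, which is 9.4% of Parp9 and 8.0% of Dtx3l, and without a stated strand such reads cannot be told apart. Parp14, a mono-ADP-ribosyltransferase, had 2.88 and 3.01 RPKM with the KO label (39.5 and 37 °C) against 1.80 and 1.40 RPKM in WT, and just missed the threshold (log2 0.61 ± 0.15, adjusted p = 0.0566).

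Interferon-inducible GTPases, which attack the vacuoles of intracellular pathogens, ranged from abundant members to ones under the filter. Gbp2 had 165 and 197 RPKM in the KO-labelled libraries at 39.5 and 37 °C, against 71.5 and 89.2 RPKM in WT. It rose by log2 1.16 ± 0.11 (adjusted p = 0.0127), with ratios of 2.31 (2.22 to 2.40) and 2.21 (2.12 to 2.29) at 39.5 and 37 °C. Both KO-labelled libraries were above both WT libraries, as in 29.4% of rows past the filter. Igtp had 55.7 and 49.1 RPKM with the KO label (39.5 and 37 °C) against 30.8 and 16.4 RPKM in WT (log2 1.18 ± 0.19, adjusted p = 0.0233), and shares 162 exon bases with its relative Irgm2. Irgm1, which also guides autophagy, had 7.91 and 4.43 RPKM with the KO label (39.5 and 37 °C) against 3.47 and 1.96 RPKM in WT (log2 0.94 ± 0.13, adjusted p = 0.0184). Ifi47 had 49.9 and 54.7 RPKM with the KO label (39.5 and 37 °C) against 36.0 and 33.8 RPKM in WT and lay close to the threshold (log2 0.57 ± 0.13, adjusted p = 0.0451). The call was lost with upper quartile scaling (adjusted p = 0.0515) and without the variance trend (adjusted p = 0.0543). In Igtp, Irgm1 and Ifi47 too the groups did not overlap. Gbp3 missed the threshold (log2 0.27 ± 0.15, adjusted p = 0.245), and Gbp4, Gbp7 and Iigp1 were under the filter.

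Of the remaining members, the mitochondrial protein gene Ifi27 had 7.33 and 5.41 RPKM in the KO-labelled libraries at 39.5 and 37 °C, against 4.03 and 2.96 RPKM in WT (log2 0.71 ± 0.13, adjusted p = 0.0287). The GPI-anchored surface proteins of the Ly6 family were the most abundant. Ly6e had 302 and 199.7 RPKM in the KO-labelled libraries at 39.5 and 37 °C, against 178 and 87.5 RPKM in WT (log2 0.97 ± 0.14, adjusted p = 0.0195). Ly6a, which encodes the stem cell antigen Sca-1 and is also an activation marker of T cells, had 196 and 219 RPKM with the KO label (39.5 and 37 °C) against 113 and 53.5 RPKM in WT (log2 1.40 ± 0.28, adjusted p = 0.0369). In both genes each KO-labelled library was above both WT libraries, as in 29.4% of rows past the filter. Ifi35 had 34.8 and 30.8 RPKM with the KO label (39.5 and 37 °C) against 22.2 and 24.8 RPKM in WT and missed the threshold (log2 0.46 ± 0.14, adjusted p = 0.0813).

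The 15 members under the filter were detected in all libraries, at 0.0152 to 1.52 RPKM and at most 197 reads. Their ratios of the KO-labelled library to WT had a counting interval above 1 in 8 at 39.5 °C and 9 at 37 °C, and below 1 in 0 at either temperature. For 39.5 °C over 37 °C the interval was above 1 in 2 with the KO label (Ifih1 and Gbp4) and in 5 in WT (Oasl1, Ifit1, Ifit3, Ifih1 and Eif2ak2), and below 1 in 0 of either. The share of other rows under the filter with such an interval clear of 1 was not counted. These counts therefore have no background beside them, and the intervals cover counting error only. Xaf1 had 65 and 43 reads in the KO-labelled libraries at 39.5 and 37 °C and 6 and 2 reads in WT, a ratio of 11.4 (4.95 to 32.1) at 39.5 °C. Gbp4 had 137 and 61 reads with the KO label (39.5 and 37 °C) against 14 and 22 reads in WT, a ratio of 10.3 (5.91 to 19.3) at 39.5 °C. Both genes had few reads in either WT library. Ifih1 had 197 and 53 reads with the KO label (39.5 and 37 °C) against 67 and 22 reads in WT, with ratios of 3.08 (2.33 to 4.13) and 2.49 (1.49 to 4.30) at 39.5 and 37 °C. The reads of Iigp1 are the smallest whole numbers that fit its RPKM values, so its interval may be too wide.

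Taken one temperature at a time, the label ratio was at least 2-fold (on log2 of RPKM + 1, which understates low genes) in 9 of the 30 members at 39.5 °C, all higher, and in 15 at 37 °C, all higher. Over all rows, 2.3% were at least 2-fold higher and 1.05% lower at 39.5 °C, and 4.7% higher and 1.14% lower at 37 °C. Of the 9, 4 (Oas3, Irf7, Ddx58 and Dhx58) had a WT mean under the filter. With the filter set on the WT pair the counts were 5 of 24 at 39.5 °C and 10 of 24 at 37 °C, beside 1.79% and 3.85% of rows, and with a mean of at least 5 RPKM they were 4 and 8 of 17, beside 2.28% and 4.66%. The 9 were Isg15, Oas3, Ifitm2, Ifitm3, Irf7, Ddx58, Dhx58, Zbp1 and Gbp2, and all of them were past 2-fold at 37 °C too. Of all 13715 rows, 315 were at least 2-fold higher at 39.5 °C, and 226 of these (1.65% of all rows) were so at 37 °C too. A further 6 were past it at 37 °C alone: Ifitm1, Irf8, Parp9, Igtp, Ly6a and Ly6e. The median log2 ratio of the 30 was 0.73 at 39.5 °C and 1.05 at 37 °C, beside 0.00 and −0.01 for all rows. Over all 45 measured members it was 0.65 and 0.68. The comparisons at 39.5 and 37 °C share no library.

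**Figure D3:**
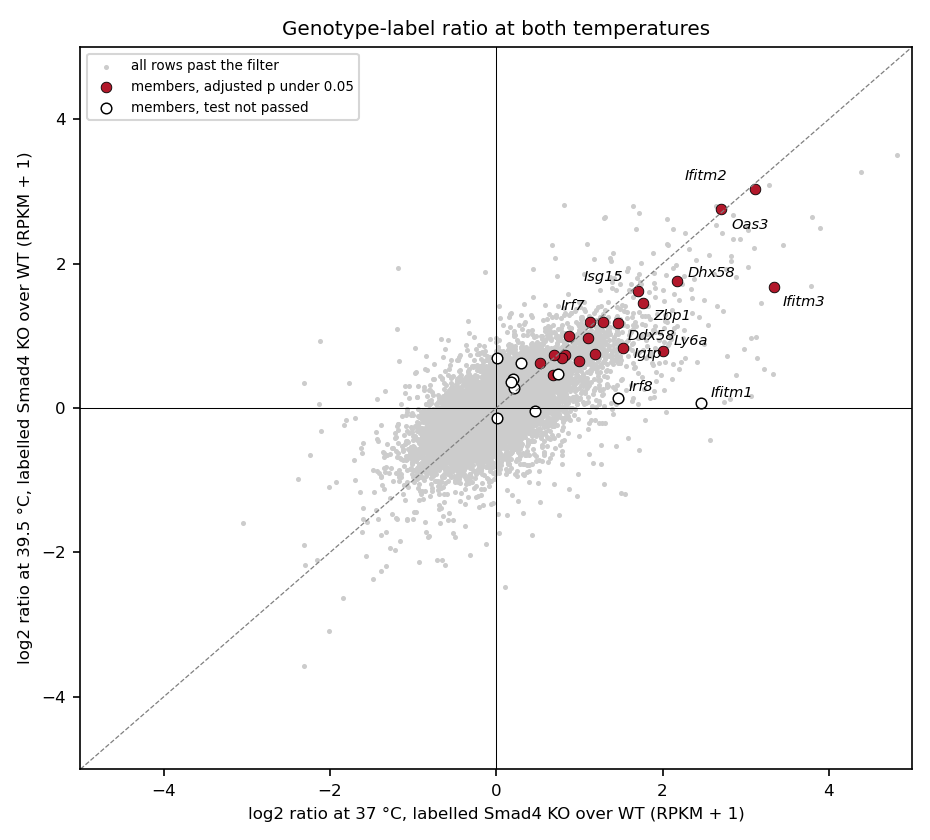
Log2 ratio of the KO-labelled library to WT (RPKM + 1) at 37 °C (horizontal axis) and 39.5 °C (vertical axis), for the 13715 rows past the filter (grey) and the 30 members past it (red, adjusted p under 0.05; white, test not passed); the dashed line marks equal ratios. Oas3 and Ifitm2 lie near the line in the upper right, while Ifitm1 and Irf8 lie far below it, with a high ratio at 37 °C and one near 0 at 39.5 °C.

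For temperature no member passed the test. In the limma fit, 0 of the 30 rose and 0 fell at 39.5 °C in both genotypes, where 0.0146% of all rows rose and 0.00729% fell. At an unadjusted p under 0.05, 7 were higher and 5 lower, beside 7.17% and 6.79% of rows, and limma-voom called 2 higher (Irgm1 and Ly6e) and 3 lower (Ifitm2, Ifitm3 and Irf8), beside 1.61% and 0.919% of rows. The median log2 change was 0.05, beside −0.02 for all rows. In the KO-labelled libraries, 0 members were at least 2-fold higher at 39.5 °C and 4 were at least 2-fold lower, beside 0.751% and 0.911% of rows. In WT, 2 were at least 2-fold higher and 1 lower, beside 1.46% and 0.525% of rows.

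The 4 members lower at 39.5 °C in the KO-labelled libraries were Ifitm1, Ifitm2, Ifitm3 and Irf8. Ifitm2, whose levels are given above, had about the same temperature ratio in both genotypes, 0.452 (0.407 to 0.501) with the KO label and 0.434 (0.313 to 0.597) in WT, and was the 1 member past 2-fold in both, as were 0.139% of rows. The ratio of Ifitm3 was 0.182 (0.145 to 0.226) with the KO label and 0.529 (0.303 to 0.903) in WT, and that of Irf8 was 0.229 (0.213 to 0.246) with the KO label and 0.599 (0.549 to 0.652) in WT. In both genes the counting interval with the KO label lay below the one in WT. Ifitm1 did not share this in WT, with a ratio of 0.0958 (0.0511 to 0.166) with the KO label and 1.23 (0.497 to 3.12) in WT. Both cultures at 39.5 °C were below both at 37 °C in 1 member, Irf8, a pattern held by 12.9% of rows. Of the 2 B cell markers measured, Ighm stood lower at 39.5 °C and Cd79a slightly higher. Ighm had 3.37 RPKM at 39.5 °C and 8.69 RPKM at 37 °C with the KO label and 4.39 and 14.3 RPKM in WT. Cd79a had 0.485 and 0.311 RPKM at 39.5 and 37 °C with the KO label and 0.213 and 0.151 RPKM in WT. Whether B cells had a part in the Irf8 values was not tested.

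On the high side, Ly6e had temperature ratios of 1.51 (1.48 to 1.55) with the KO label and 2.04 (1.98 to 2.10) in WT. Irgm1 had 1.78 (1.59 to 2.0) with the KO label and 1.77 (1.49 to 2.11) in WT, nearly the same. Ly6a was 2.12-fold higher at 39.5 °C in WT (1.98 to 2.27) and slightly lower with the KO label, at 0.897 (0.860 to 0.935). Both cultures at 39.5 °C were above both at 37 °C in 4 of the 45 measured members (Oas2, Ifit1, Ifih1 and Bst2). Of the 30 past the filter, 1 held this pattern (Bst2), as did 13.1% of rows past it, so it was no more frequent among the members. Of the 4, Ifih1 had ratios of 3.56 (2.62 to 4.92) with the KO label and 2.87 (1.75 to 4.89) in WT, while Oas2 and Ifit1 rest on 13 reads or fewer a library.

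**Figure D4:**
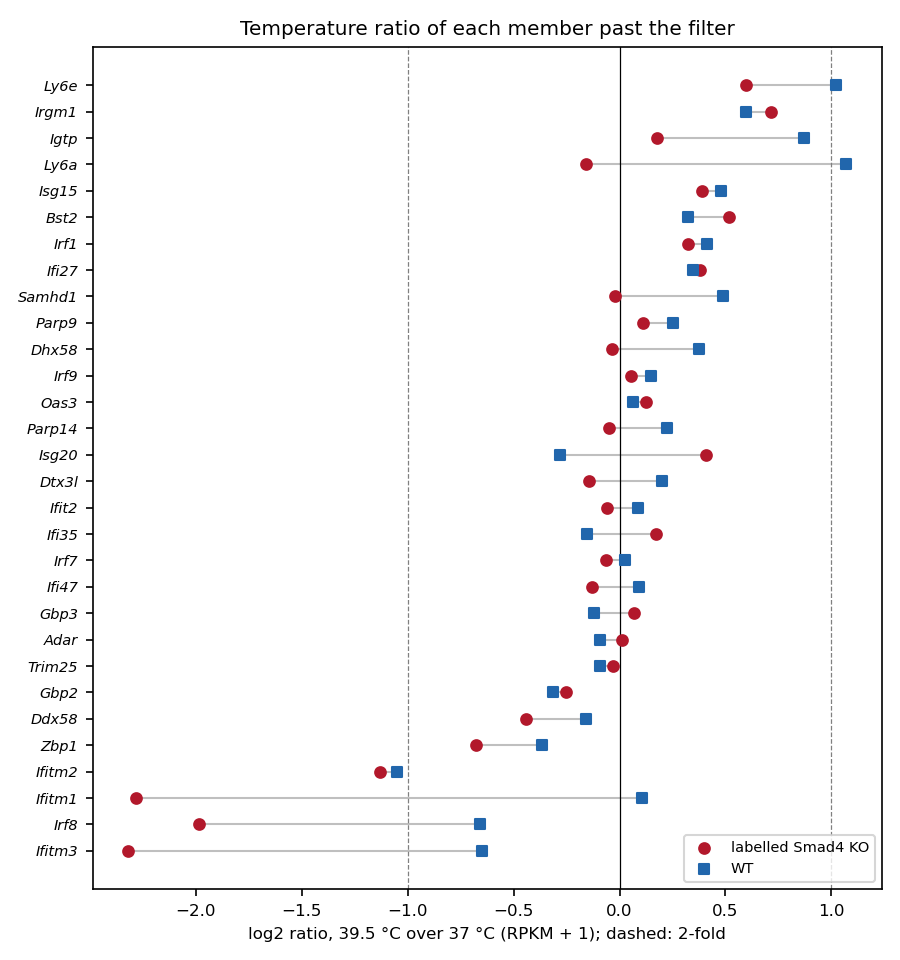
Log2 ratio of 39.5 °C to 37 °C (RPKM + 1) for each of the 30 members past the filter, in the KO-labelled libraries (red circles) and in WT (blue squares), ordered by their mean; dashed lines mark 2-fold. Ifitm1, Ifitm3 and Irf8 have red points far left of their blue ones, Ly6a has its blue point far right of its red one, and most other members lie within 2-fold on both.

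The temperature response differed between the genotype labels by at least 1 on the log2 scale in 4 of the 30 members, where 2.22% of rows did. The difference, KO label minus WT, was −2.39 for Ifitm1, −1.67 for Ifitm3, −1.33 for Irf8 and −1.23 for Ly6a. All 4 were negative. Over the 30 members the median difference was −0.12, beside 0.00 for all rows. With 1 library per combination these differences have no replicate check and no test.

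The genes that act upstream of the members were read from the same fit. Of 61 genes listed for the interferon pathway 36 were measured and 33 passed the filter; 7 rose with the KO label, 1 fell and 25 did not pass the test, with a median log2 change of 0.16, where 8.57% of all rows rose and 4.7% fell. The 21 interferon ligand genes listed were not analysed here. Of the 5 receptor genes measured, 1 rose: Ifngr2, the signalling chain of the interferon gamma receptor, had 21.0 and 17.7 RPKM in the KO-labelled libraries at 39.5 and 37 °C, against 14.1 and 11.02 RPKM in WT (log2 0.59 ± 0.12, adjusted p = 0.0392). Ifnar1 had 7.95 and 8.89 RPKM with the KO label (39.5 and 37 °C) against 5.76 and 5.91 RPKM in WT (log2 0.46 ± 0.13, adjusted p = 0.0689), and its partner Ifnar2 had 8.89 and 9.74 RPKM with the KO label (39.5 and 37 °C) against 8.87 and 8.21 RPKM in WT (log2 0.11 ± 0.13, adjusted p = 0.576). Both missed the threshold, as did the other 2. Ifngr1 had 12.6 and 11.1 RPKM with the KO label at 39.5 and 37 °C against 11.97 and 7.71 RPKM in WT, and Il10rb had 2.60 and 3.35 RPKM with the KO label at 39.5 and 37 °C against 2.26 and 2.61 RPKM in WT.

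None of the 6 kinase and STAT genes passed the test (3 were higher at an unadjusted p under 0.05 and 0 lower, beside 19.0% and 15.6% of rows). Stat2 had 2.97 and 3.17 RPKM with the KO label (39.5 and 37 °C) against 2.07 and 1.81 RPKM in WT (log2 0.47 ± 0.14, adjusted p = 0.0855). In Stat2 both KO-labelled libraries were above both WT libraries, as in 29.4% of rows past the filter. Stat3, which carries the IL-6 signal, had 35.6 and 45.4 RPKM with the KO label (39.5 and 37 °C) against 32.5 and 32.7 RPKM in WT (log2 0.30 ± 0.14, adjusted p = 0.195).

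The pathway genes that rose included a sensor adaptor and feedback inhibitors. Tmem173, which encodes the DNA-sensing adaptor STING, had 167 and 177 RPKM in the KO-labelled libraries at 39.5 and 37 °C, against 62.6 and 64.2 RPKM in WT (log2 1.43 ± 0.11, adjusted p = 0.00878). Ikbke, a kinase that activates IRF3 and IRF7, had 8.98 and 10.5 RPKM with the KO label (39.5 and 37 °C) against 3.43 and 3.22 RPKM in WT (log2 1.31 ± 0.14, adjusted p = 0.0148). The suppressor of cytokine signalling Socs1 had 50.6 and 62.0 RPKM with the KO label (39.5 and 37 °C) against 32.2 and 24.9 RPKM in WT (log2 0.96 ± 0.18, adjusted p = 0.0319), and Socs3 had 10.2 and 16.4 RPKM with the KO label (39.5 and 37 °C) against 5.84 and 5.37 RPKM in WT (log2 1.08 ± 0.20, adjusted p = 0.031). In all 4 both KO-labelled libraries were above both WT libraries, as in 29.4% of rows past the filter. Irf5, a factor of inflammatory macrophages, also rose, with 12.8 and 9.09 RPKM with the KO label at 39.5 and 37 °C against 7.43 and 3.65 RPKM in WT. So did the IRF2 corepressor gene Irf2bp2, with 46.5 and 43.4 RPKM with the KO label at 39.5 and 37 °C against 30.7 and 28.9 RPKM in WT. Rnaseh2b, a subunit of the RNase that removes ribonucleotides from DNA, fell, with 2.44 and 2.12 RPKM in the KO-labelled libraries at 39.5 and 37 °C and 4.596 and 3.90 RPKM in WT (log2 −0.68 ± 0.13, adjusted p = 0.0347).

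Interferon-stimulated genes outside the 48 were read in the same way, from a list also chosen with earlier results of these data known. Of 77 listed 65 were measured and 40 passed the filter; 21 rose with the KO label, 0 fell and 19 did not pass the test, with a median log2 change of 0.69, beside the same 8.57% and 4.7% of rows. The filter bears on this count too: 6 of the 40 passed it with a WT mean under 1 RPKM. Epsti1, Uba7 and Trim34a, which rose, were among these 6. In the KO-labelled libraries 1 of the 40 had a mean under 1 RPKM. At an unadjusted p under 0.05, 30 of the 40 were higher and 1 lower, beside 19.0% and 15.6% of rows. On log2(RPKM + 1), which understates low genes, the largest changes among them were in Lgals3bp, a secreted scavenger-receptor protein, with 144 and 89.9 RPKM in the KO-labelled libraries at 39.5 and 37 °C against 38.6 and 23.5 RPKM in WT (log2 1.88 ± 0.12, adjusted p = 0.00622), and in the RNA helicase gene Mov10, with 9.55 and 12.4 RPKM with the KO label (39.5 and 37 °C) against 2.53 and 2.05 RPKM in WT (log2 1.86 ± 0.17, adjusted p = 0.0122). The near-identical GTPase genes Tgtp1 (log2 1.74) and Tgtp2 (log2 1.48), Ifi27l2a (log2 1.72), Plac8 (log2 1.62), Trim30a (log2 1.61) and Helz2 (log2 1.40) followed. By ratio the order differed: Trim30a was 4.15-fold and 5.70-fold higher with the KO label at 39.5 and 37 °C, and Lgals3bp 3.74-fold and 3.83-fold. For temperature, 0 genes of either list were called, with 1 higher and 0 lower in the pathway list and 8 higher and 0 lower in the other list at an unadjusted p under 0.05, beside 7.17% and 6.79% of rows.

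**Figure D5:**
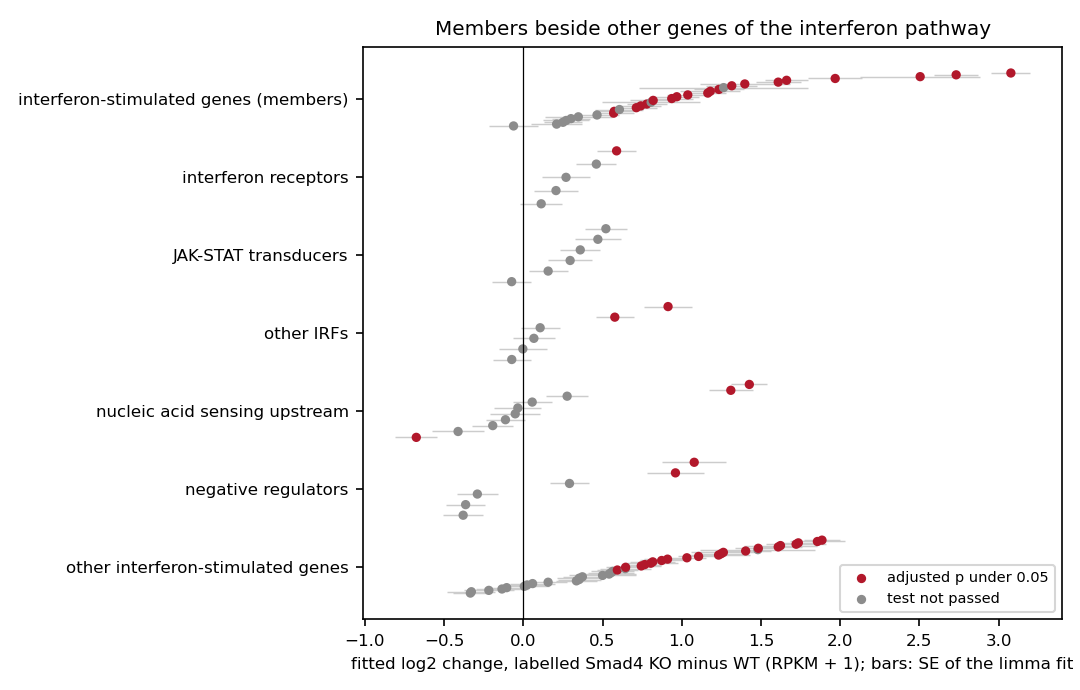
Fitted log2 change with the Smad4 KO label (KO label minus WT, RPKM + 1) of the 30 members past the filter and of other interferon pathway genes by role; points are genes, bars are the standard error of the limma fit, and red points have an adjusted p under 0.05. The members and the other interferon-stimulated genes reach past log2 1.5, receptors and JAK-STAT genes stay below 0.6, and 1 sensing gene (Rnaseh2b) is red on the left.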

How the data were processed

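RNA of 4 libraries was sequenced, 1 for each combination of genotype label and temperature, grouped by the labels. For each library the authors deposited a table of RPKM values; the submitters' processing notes name Trim Galore 0.4.4, Bowtie2, featureCounts, Subread, edgeR and mm10, and the labels' protocols name Trizol and a NEXTflex kit. The sources used here do not give the annotation release, strandedness or multi-mapping rules.

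Whole reads were recovered by multiplying RPKM by exon length (GENCODE vM21) and library size: of 13144 rows with an annotated length, 12053 (91.7%) were whole within 0.01 reads, and 19548 of 19553 rows were recovered when each could take its own length. Recovered reads summed to 18472387, 18471483, 18250539 and 18045884 in the KO-labelled libraries at 39.5 and 37 °C and in WT at 39.5 and 37 °C. Library size over these reads was 0.997, 0.955, 1.06 and 1.01, so the values carry a scaling other than total reads.

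The test was limma 3.58.1 in R 4.3.3 on log2(RPKM + 1) of rows averaging 1 RPKM or more, with additive genotype and temperature, an empirical Bayes trend, 1 residual degree of freedom (a median of 4.475 prior degrees) and Benjamini-Hochberg adjustment over all rows. Its error is the interaction, moderated over all genes, not a spread between animals. Pairs of single libraries were read by a 2-fold rule with no p-value, with exact Clopper-Pearson 95% intervals for RPKM ratios. Methods were checked on simulated data.

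Values are given for members that passed the test or the 2-fold rule, for the highest of each role, for up to 8 called genes of each other list, and for receptors and STATs (a few items of the lists are not reported here); values of further members (such as Usp18, Oas2, Ifit1, Xaf1, Gbp4 and Ifih1) were added after they were seen. Members and lists were chosen with earlier results of these data known. Alternatives were other pseudocounts, filters, scalings, folds and models.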

Additional observations from a re-analysis of the deposited data

Results flagged for a closer look

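In 3 members the temperature ratio (39.5 °C over 37 °C) lay above 1 under one genotype label and below 1 under the other, with a counting interval clear of 1 in both pairs. Ly6a had a ratio of 0.897 in the KO-labelled libraries and 2.12 in WT. Dtx3l had 0.897 in the KO-labelled libraries and 1.18 in WT, and Ifi35 had 1.13 in the KO-labelled libraries and 0.895 in WT. The difference between the labels was not tested, since each ratio rests on 1 library a side. The share of all rows with such opposite ratios was not counted either, and the intervals cover counting error only.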

How the results depend on the processing

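No paired analysis was possible because each combination had 1 library and the labels carry no replicate numbers. With 1 library a group none could be left out within a group. No called value changed direction under the alternatives run; the median temperature change with the KO label, which is close to 0, was −0.03 and turned to 0.02 with no filter. The 20 members that rose with the KO label were all called too with a pseudocount of 0.1 RPKM, with median-of-ratios scaling (21 in all, adding Parp14) and with limma-voom (23, adding Parp14, Ifitm1 and Ifi35); upper quartile scaling and the fit without the variance trend called 19 of them, without Ifi47. Of all rows, 9.03% rose with that pseudocount, 10.3% with median-of-ratios scaling and 11.8% with limma-voom. The shares were 7.69% with upper quartile scaling and 7.72% without the variance trend. With a mean of at least 5 RPKM 14 of 17 were called, beside 15.3% of rows. These were the 12 of the 20 past that filter and Ifi35 and Irf8. With no filter 0 members were called, and 0 of all 19555 rows; with genotype alone in the model 1 was called (Oas3), and 11 rows rose in all. The median log2 change with the label was 0.61 with no filter (0.88 with it), and at 37 °C it was 0.68 with no filter and 0.85 with the filter set on the WT pair, an alternative chosen after seeing the data (1.05 otherwise). Counts at least 2-fold higher with the label at 39.5 °C were 4 with the 5 RPKM filter and 5 with the WT filter (9 otherwise), beside 2.28%, 1.79% and 2.3% of rows. At 37 °C the count was 8 with the 5 RPKM filter (15 otherwise), beside 4.66% and 4.7% of rows. A rule of 1.5-fold gave 21 members higher with the label at 39.5 °C. For temperature the 5 RPKM filter called 1 higher (Ly6e) and 3 lower (Ifitm2, Ifitm3 and Irf8), beside 1.99% and 1.25% of rows. With limma-voom 2 were higher and 3 lower, beside 1.61% and 0.919% of rows. Median-of-ratios scaling called 1 lower (Ifitm2), beside 0.219% of rows. At 1.5-fold, 2 members were higher at 39.5 °C with the KO label, and 4 higher and 3 lower in WT. The share of all rows past 1.5-fold is not given here, so the 1.5-fold counts have no background beside them. The WT median was 0.20 with a pseudocount of 0.1 RPKM (0.10 otherwise). Single-member calls held in 127 and were lost in 41 of the comparisons with an alternative, 20 of the losses being those with no filter and 19 those with genotype alone. The cause was not tested. At this depth the members under 1 RPKM rest on few reads.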
